A study of Dugesia japonica with 15 samples.

Results

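In the freshwater planarian *Dugesia japonica*, 301 of the 28999 genes with DJKW identifiers were abundant in intact control animals and stood at less than 50% of that level in regenerating trunk fragments. They were chosen by their values: a median of at least 50 CPM (a count divided by the library total and multiplied by 1000000) in control intact animals, a log2 ratio of medians of at most -1 in control fragments against control intact animals (0.5 CPM added to both medians), a log2 ratio above -0.4 in DjTcf4 RNAi fragments against control fragments, and every control fragment library below every control intact library. Of 3730 genes with at least 50 CPM, 333 met the bound on the fall and 32 of these were removed by the bound on the RNAi ratio; all 301 that remained also met the last condition. The deposited table does not pair its identifiers with gene names, so the functions of the members are not known here, no cell type markers or pathway lists could be looked up, and which row holds DjTcf4 is not known. At most 2 identifiers are therefore given for each comparison, and other members are described by their rank of abundance in control intact animals.

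Planarians replace lost body parts from neoblasts, a population of dividing stem cells, while the tissue that remains is remodelled. A trunk fragment has lost its head and tail, and in the days after amputation it forms new tissue at the wounds. Proteins of the TCF family bind DNA and can act with β-catenin in Wnt signalling; the series concerns DjTcf4 and the timing of differentiation. RNA interference (RNAi) lowers a target transcript by means of double-stranded RNA.

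Polyadenylated RNA was sequenced from groups of animals in 15 libraries, all from animals given RNAi. The groups were control RNAi intact animals (n = 4), DjTcf4 RNAi intact animals (n = 4), control RNAi trunk fragments at 5 days post amputation (5 dpa, written 5dap in the sample titles; n = 4) and DjTcf4 RNAi trunk fragments at 5 dpa (n = 3, replicates 1, 3 and 4). Age, strain and the sequence used for control RNAi are not stated in the labels, and nothing says whether replicates came from separate cultures, so the spread behind each p-value is that between these libraries and may be technical. A change in these bulk samples can come from fewer cells of a type or from less RNA per cell, which cannot be told apart, and a trunk also lacks body regions that an intact animal has.

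Total counts lay between 8136366 and 12224216 per library. DjTcf4 RNAi intact replicate 2 stood apart: the median member was at 22.3% of its control intact level there, against 77.1%, 109% and 83.2% in replicates 1, 3 and 4 of the same group. Most results that rest on this library are given with and without it. Of the 301 members, 54 (17.9%) had a fractional count in at least 1 library, against 19% of all genes tested, and their levels are uncertain where counting shared reads among near copies.

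The values that chose the members are given first as a description. The medians of the members ranged from 50.1 to 8832 CPM in control intact animals, with a median of 90.2 CPM, and from 3.21 to 2829 CPM in control fragments, with a median of 28.3 CPM. The share of the intact level left in control fragments had a median of 34.1% and ranged from 3.46% to 49.6%. By size, 216 members fell 2-fold to under 4-fold, 63 fell 4-fold to under 8-fold and 22 fell at least 8-fold. The median log2 ratio, which the rule held at -1 or below for every member, differed little between classes of abundance. It was -1.53 in the 165 members of 50 to under 100 CPM and -1.54 in the 118 of 100 to under 500 CPM. In the 14 of 500 to under 1000 CPM it was -1.62, and in the 4 members of at least 1000 CPM it was -1.56. At the bounds of the rule, the gene just inside the abundance bound stood at 50.1 CPM and the gene just outside at 49.98 CPM. The log2 ratios just inside and just outside were -1.01 and -0.999 for the fall and -0.392 and -0.404 for the RNAi ratio. In edgeR's quasi-likelihood test 295 of the 301 members were called lower in control fragments (adjusted p under 0.05), where 16.1% of 17094 genes were called lower; nothing is read from this, since the rule used the contrast.

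The most abundant member was DJKW.24665. Its level was 9374, 8555, 8220 and 9110 CPM in control intact replicates 1 to 4 and 2780, 2726, 2878 and 3460 CPM in control fragments. With DjTcf4 RNAi it stood at 10136, 11055, 8920 and 8923 CPM in intact animals and at 2690, 2231 and 1955 CPM in fragments. Its level was thus high in every intact library, replicate 2 included, and low in every fragment, and the groups of fragments and intact animals did not overlap. The next most abundant member, DJKW.11345, followed the same pattern. It was at 4462, 4581, 4315 and 4693 CPM in control intact animals, at 5485, 5640, 5214 and 5132 CPM in DjTcf4 RNAi intact animals, at 1671, 1829, 1731 and 1877 CPM in control fragments and at 1511, 1445 and 1523 CPM in DjTcf4 RNAi fragments. All 4 RNAi intact libraries stood above all 4 control intact libraries for this gene, the 1 member of which that held (0.332%, against 2.58% of all genes tested). Both genes had fractional counts in all 15 libraries.

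The third most abundant member behaved differently within groups. It stood at 1791, 2754, 2200 and 2684 CPM in control intact animals and at 1827, 381, 2307 and 1818 CPM in DjTcf4 RNAi intact animals. In control fragments it was at 701, 963, 982 and 793 CPM, and in DjTcf4 RNAi fragments at 1096, 669 and 635 CPM. DjTcf4 RNAi intact replicate 2 was the lowest of all 15 libraries for this gene, below every fragment, and control intact replicate 1 was the lowest control intact library. The fourth most abundant member fell further: 596, 1764, 1457 and 1985 CPM in control intact animals against 83.1, 56.9, 194 and 103 CPM in control fragments, and 716, 86.7, 1518 and 1054 CPM against 143, 128 and 152 CPM with DjTcf4 RNAi. The deepest fall was that of the 61st member, from 66.0, 202, 177 and 218 CPM in control intact animals to 6.48, 2.21, 10.4 and 6.61 CPM in control fragments. With DjTcf4 RNAi the same gene was at 61.9, 6.05, 169 and 90.2 CPM in intact animals and at 10.1, 7.62 and 10.8 CPM in fragments. In both of these members control intact replicate 1 was again the lowest of its group.

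**Figure D1:**
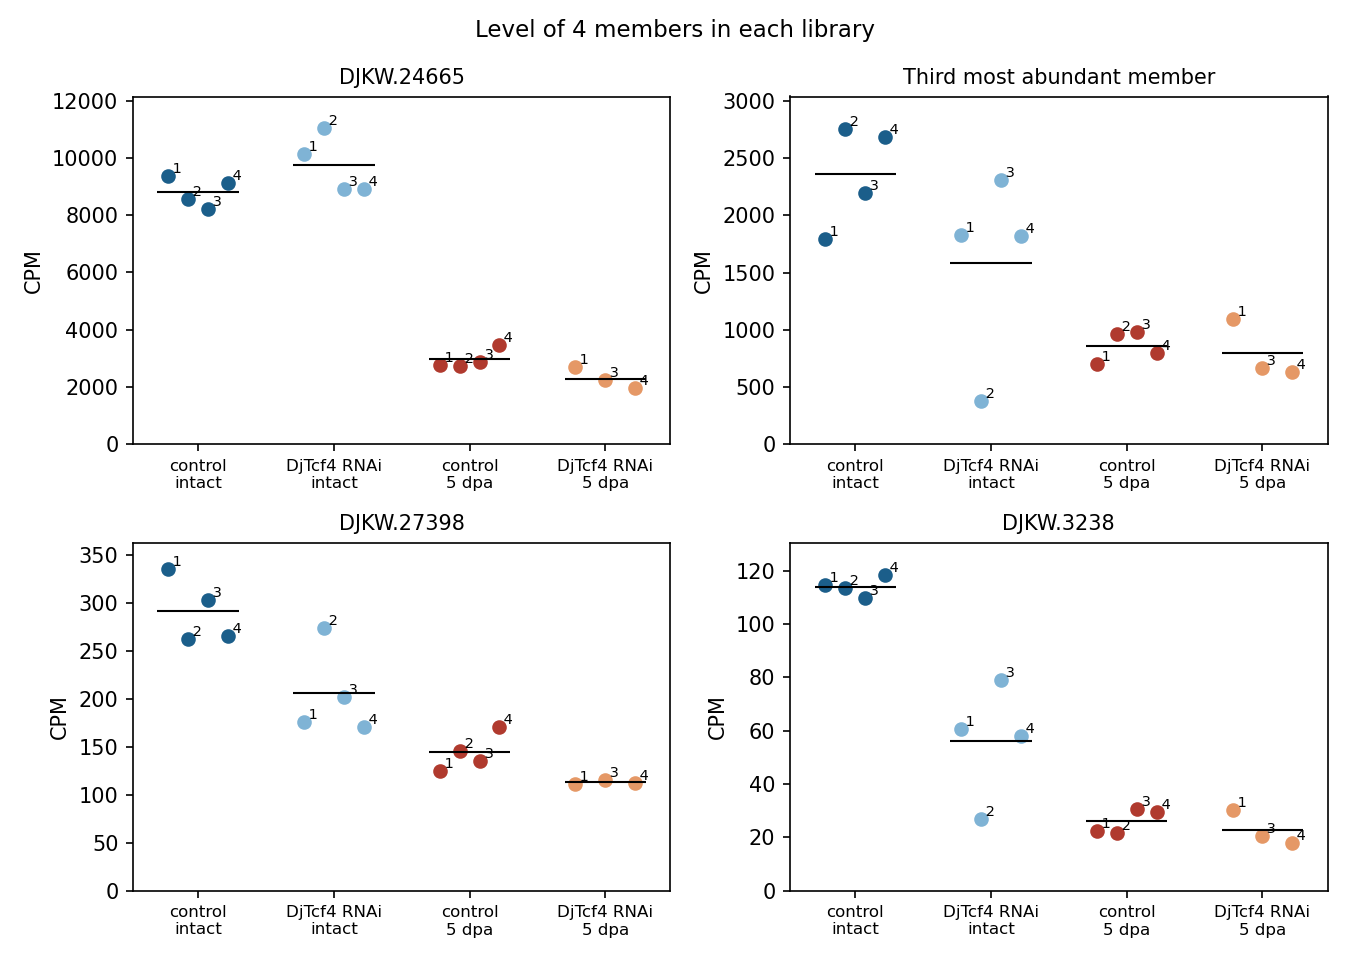
Level in CPM of 4 members in each of the 15 libraries; points are libraries with their replicate numbers, colours mark the groups and lines the group means. DJKW.24665 is low in fragments alone, the third most abundant member is at 381 CPM in DjTcf4 RNAi intact replicate 2, and DJKW.3238 is lower in all 4 RNAi intact libraries than in the controls.

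Whether the members also fell by 5 dpa when DjTcf4 was targeted was asked by comparing libraries that the fall bound did not use. The spread of each gene was estimated over all 15 libraries, so the p-values also rest on the control libraries that chose the members. When just the groups compared were fitted, 20 members were called lower, a count with no share of all genes beside it. The rule touched the DjTcf4 RNAi fragments through its last ratio alone, which removed genes that were low there. In edgeR's quasi-likelihood test 76 of the 301 members (25.2%) were lower in DjTcf4 RNAi fragments than in DjTcf4 RNAi intact animals and 0 were higher, with 0 higher also at an unadjusted p under 0.05 and in DESeq2 and limma-voom. Over all 17094 genes 6.67% were called lower and 6.81% higher, and among 3429 other DJKW genes of at least 50 CPM in control intact animals 7.99% were called lower and 16.1% higher. The log2 fold change was below 0 in all 301 members, from -3.01 to -0.088. Its median was -0.92 in the members, 0.083 in the other abundant genes and -0.048 in all genes tested.

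The most abundant member and the member with the smallest p, DJKW.11345, are named for this comparison. DJKW.24665 fell from 9759 ± 1037 CPM (SD, n = 4) to 2292 ± 371 CPM (n = 3), a log2 fold change of -2.06 (SE 0.148; adjusted p = 1.03e-07, edgeR). DJKW.11345 fell from 5368 ± 236 CPM (n = 4) to 1493 ± 42.0 CPM (n = 3), a log2 fold change of -1.81 (SE 0.102; adjusted p = 6.86e-09, edgeR). Both were called in each of 23 alternatives. The third most abundant member had a log2 fold change of -0.91 (SE 0.389; adjusted p = 0.130, edgeR), and the deepest faller one of -3.01 (SE 0.758; adjusted p = 0.0180, edgeR).

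Without DjTcf4 RNAi intact replicate 2, 294 of the 301 members (97.7%) were called lower in DjTcf4 RNAi fragments, where 19.3% of all genes tested and 19.1% of the other abundant genes were, and all 76 earlier calls were among them. The median log2 fold change was then -1.18, with a range from -3.42 to -0.38. Every fragment library lay below every intact library in 21 members (6.98%, against 9.41% of all genes tested) with all libraries and in 294 members (97.7%, against 27.8%) without replicate 2. That library was singled out because the members were low in it, and leaving it out raises the intact level of most of them. Both counts without it are therefore a description, also beside the shares of all genes. The count of calls also moved with other libraries: it was 24 without DjTcf4 RNAi fragment replicate 3, 24 without fragment replicate 4, 32 without DjTcf4 RNAi intact replicate 3 and 48 without intact replicate 4. The share of all genes called in these fits was not taken, so whether the members exceeded it there is not known. DESeq2 called 124 members lower, where it called 9.27% of all genes, and limma-voom called 291, where it called 20.6%.

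Members with larger falls in control animals also had larger falls with DjTcf4 RNAi. Calls with DjTcf4 RNAi were 41 of the 216 members that fell 2-fold to under 4-fold in control animals, 17 of the 63 that fell 4-fold to under 8-fold, and 18 of the 22 that fell at least 8-fold. The median log2 fold changes with RNAi in these classes were -0.78, -1.36 and -2.28, and -1.07, -1.70 and -2.67 without replicate 2, beside median log2 ratios of -1.35, -2.36 and -3.54 in control animals. Across the 301 members the log2 ratio in control animals and the log2 fold change with RNAi had a Pearson correlation of 0.853 (Spearman 0.782) and of 0.904 (0.856) without replicate 2. These are descriptions across genes, which are not independent; the measures share no library, but the rule set the first and, by its bound on RNAi against control fragments, tied the fragment levels of both. The larger falls in control animals are not evidence of a difference, since the members were chosen for their fall there.

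**Figure D2:**
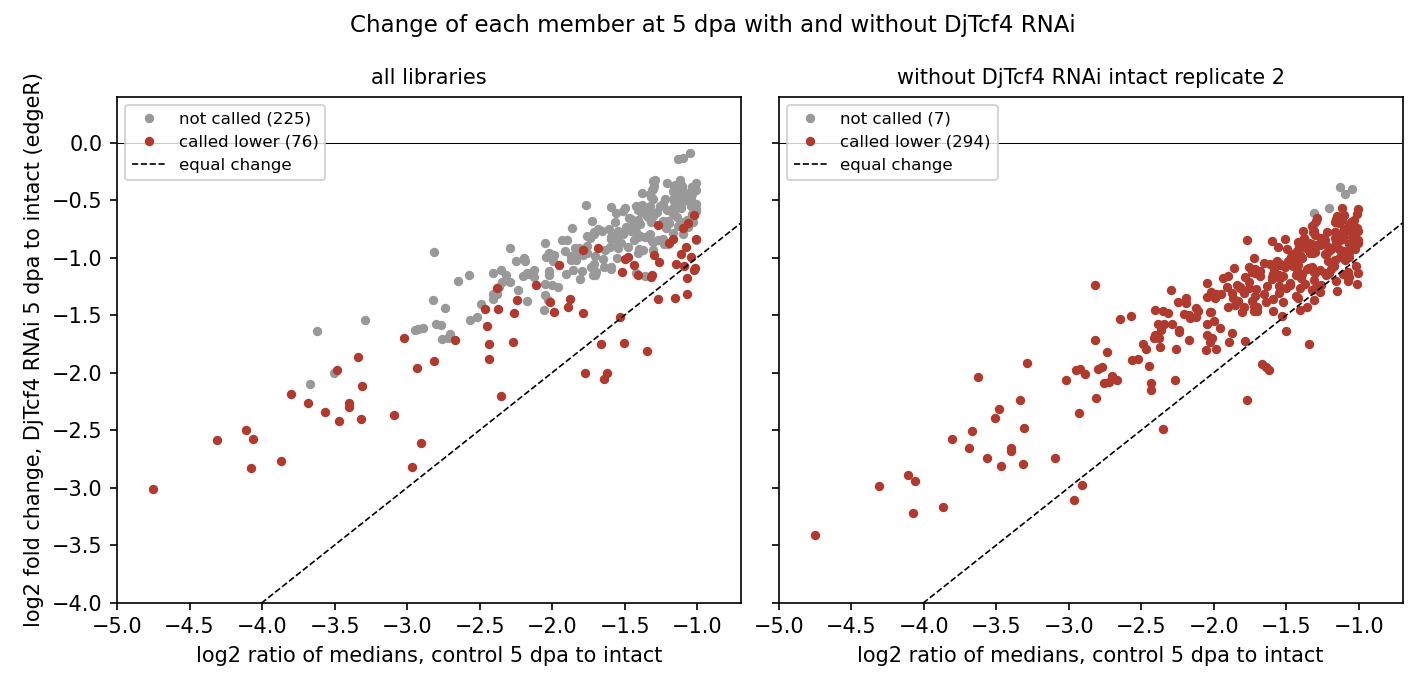
Each point is a member; the x axis is the log2 ratio of medians in control fragments against control intact animals, which chose the members, and the y axis the edgeR log2 fold change in DjTcf4 RNAi fragments against DjTcf4 RNAi intact animals. With all libraries 76 members are called lower, and without DjTcf4 RNAi intact replicate 2, on the right, 294. That library was left out because the members were low in it, so the right panel is a description.

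The levels of the members also varied together within groups. The 299 members other than DJKW.24665 and DJKW.11345 summed to 35520, 52682, 45133 and 55225 CPM in control intact replicates 1 to 4 and to 36533, 11703, 51374 and 38977 CPM in DjTcf4 RNAi intact replicates 1 to 4. In fragments the sums were 13230, 15307, 20008 and 14316 CPM in control and 22057, 14631 and 13293 CPM with DjTcf4 RNAi. Replicate 2 of DjTcf4 RNAi intact animals was thus below every fragment library in this sum, while the other 7 intact libraries were above every fragment. The 2 most abundant members together gave 12534 to 13837 CPM in control intact animals, 14054 to 16695 CPM in DjTcf4 RNAi intact animals, 4451 to 5337 CPM in control fragments and 3478 to 4201 CPM in DjTcf4 RNAi fragments, and replicate 2 was the highest of its group for them.

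**Figure D3:**
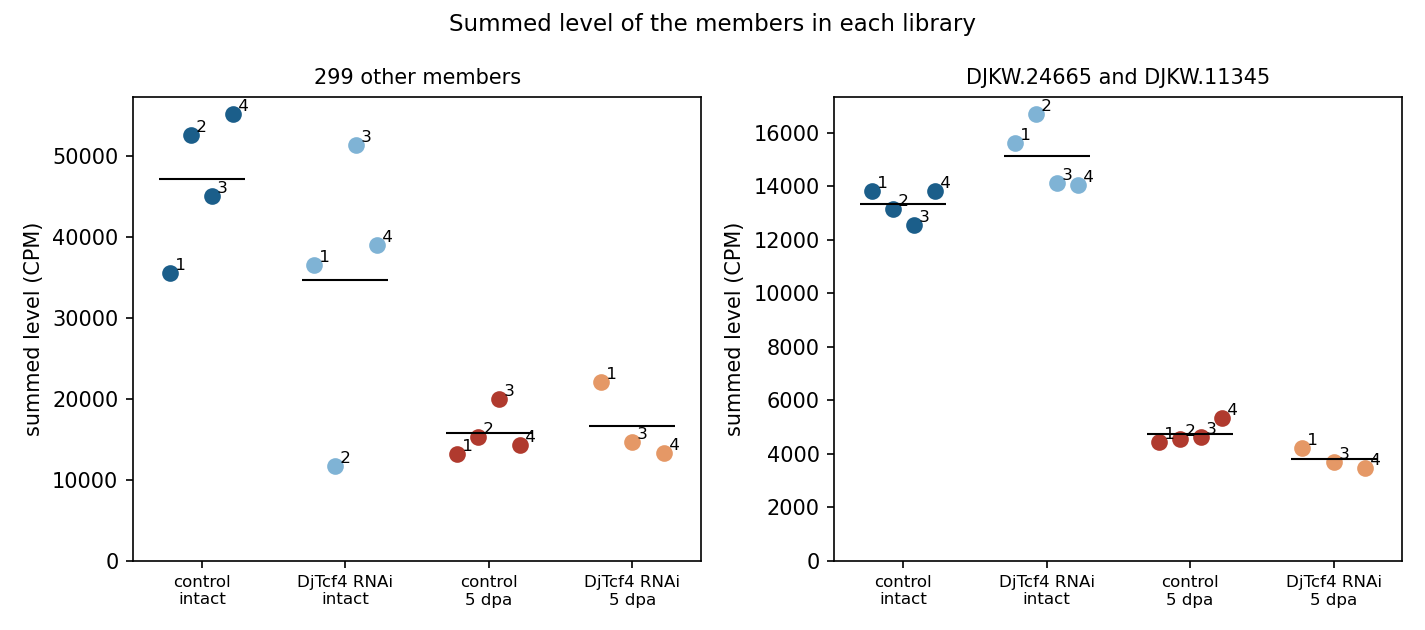
Summed level, in CPM, of 299 members (left) and of DJKW.24665 and DJKW.11345 (right) in each library; numbers beside the points are replicates and lines are group means. DjTcf4 RNAi intact replicate 2 is the lowest of all libraries on the left, at 11703 CPM, and the highest on the right.

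In each group the same libraries ranked first or last for most members. Control intact replicate 1 was the lowest of its group for 284 members (94.4%), against 35.3% of the other abundant genes. DjTcf4 RNAi intact replicate 2 was the lowest of its group for 290 members (96.3%, against 40.6%) and replicate 3 the highest for 279 (92.7%, against 26.1%). Control fragment replicate 3 was the highest of its group for 269 members (89.4%, against 17.7%), and DjTcf4 RNAi fragment replicate 1 for 283 (94.0%, against 29.4%). The deviation of each gene from its group mean was correlated between pairs of members with a median of 0.942 over 15 libraries, and 0.825 over 14 without DjTcf4 RNAi intact replicate 2, while pairs of other abundant genes had medians of 0.0218 and 0.0101. Without that library 286 of the 301 members had a median correlation above 0.5 with the rest. The points of these correlations share libraries, so they describe how the libraries differed and carry no test.

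The libraries also differed in other measures. In control intact replicates 1 to 4 the median member stood at 75.1%, 109%, 92.5% and 113% of its control intact median, and 22577, 20761, 21474 and 21202 genes had a count. In DjTcf4 RNAi intact replicates 1 to 4 the corresponding levels were 77.1%, 22.3%, 109% and 83.2%, and the genes with a count 22434, 22092, 20928 and 22977. Control intact replicate 1, the lowest of its group for most members, thus had the most genes with a count in its group, and DjTcf4 RNAi intact replicate 3, the highest for most, had the fewest, while the other intact libraries followed no one order. In control fragments the median member was at 29.9%, 34.0%, 46.2% and 32.5%, with 21545, 19944, 21719 and 21612 genes with a count, and in DjTcf4 RNAi fragments at 51.0%, 33.5% and 29.9%, with 22447, 21988 and 21209. Among fragments the order was the other way: control replicate 3 and DjTcf4 RNAi replicate 1, the highest for most members, had the most genes with a count in their groups. Control intact replicate 1 also had the largest total count of its group and DjTcf4 RNAi intact replicate 3 the smallest. The part of these measures in the results was not tested.

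**Figure D4:**
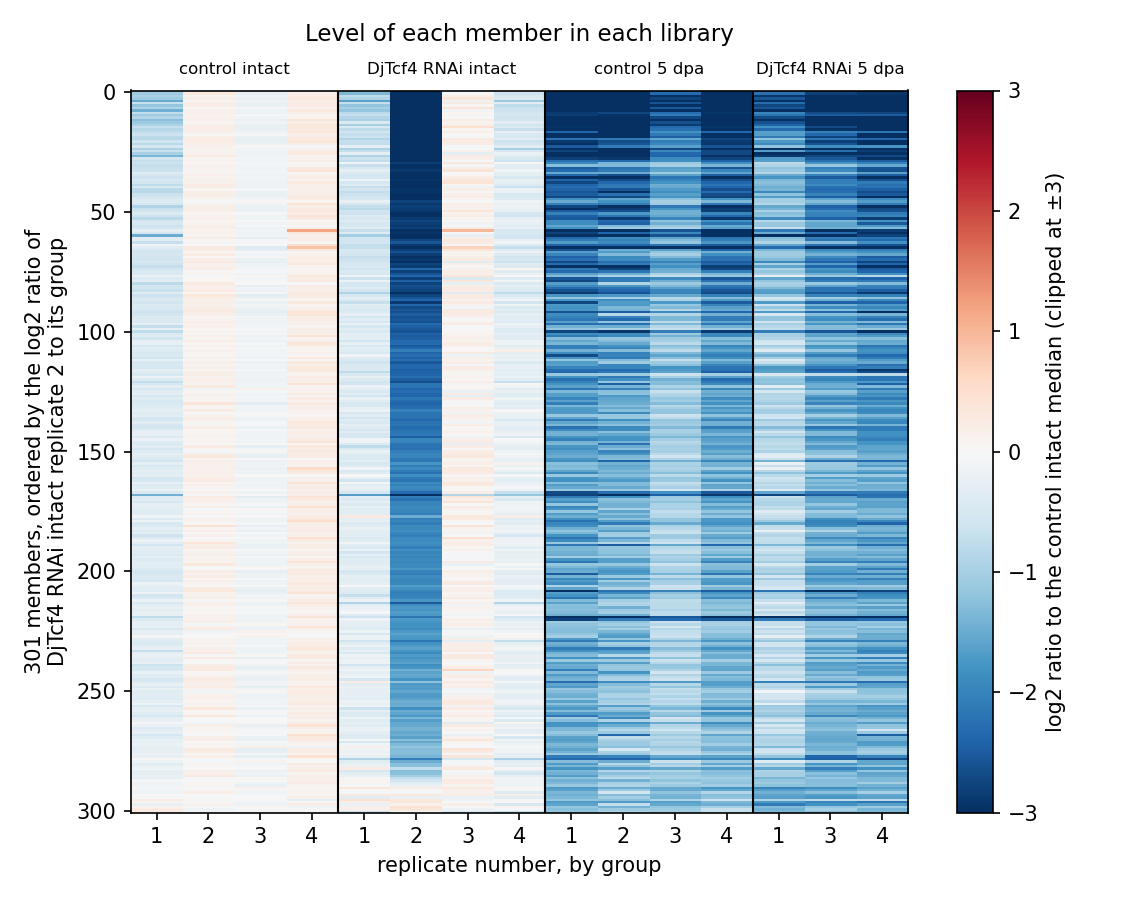
Log2 ratio of each of the 301 members (rows) to its control intact median in each library (columns, by group and replicate); rows are ordered by the log2 ratio of DjTcf4 RNAi intact replicate 2 to the other 3 libraries of its group. Blue is lower; replicate 2 is as blue as the fragments for all but the lowest rows.

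DjTcf4 RNAi intact replicate 2 divided the members. Against the median of the other 3 libraries of its group, 282 members (93.7%) were at least 2-fold lower there, as were 341 (9.94%) of the 3429 other abundant genes. The median log2 ratio was -1.91 in the members and 0.045 in the other abundant genes. This library was below all 7 fragment libraries in 204 members (67.8%), as it was in 1449 (42.3%) of the other abundant genes. Members that fell further in control animals were also lower in this library, with a Pearson correlation of 0.715 (Spearman 0.707) between the 2 log2 ratios across 301 genes, a description of measures that share no library.

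**Figure D5:**
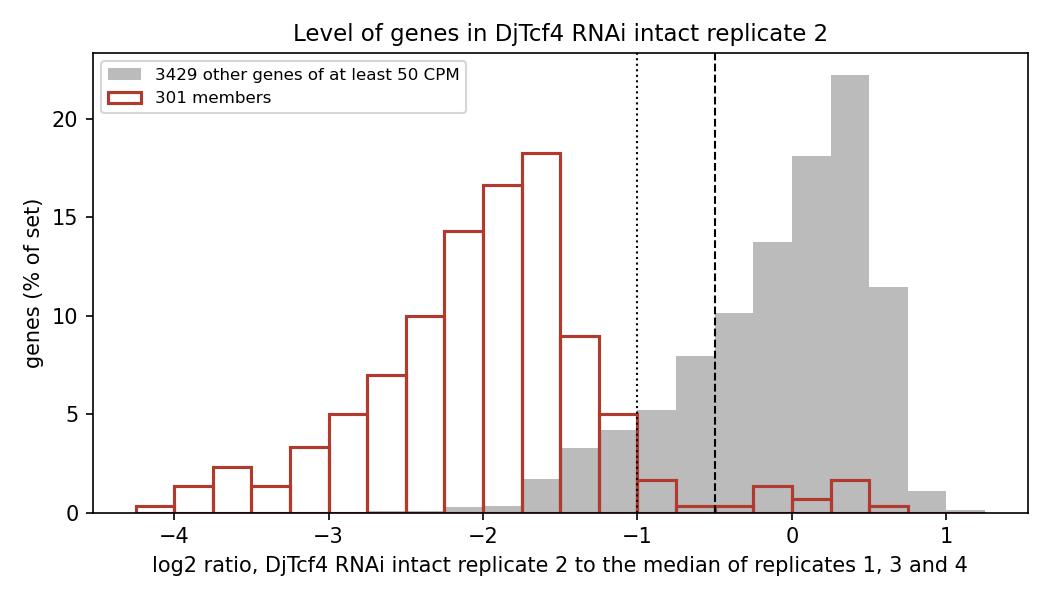
Share of genes (y axis, % of each set) by the log2 ratio of their level in DjTcf4 RNAi intact replicate 2 to the median of replicates 1, 3 and 4 (x axis) for the 301 members (outline) and 3429 other DJKW genes of at least 50 CPM (grey). The members centre on -1.91, apart from 13 to the right of the dashed line at -0.5; the dotted line marks -1.

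The 13 members above -0.5 in that ratio, a set chosen after the values were seen and given with no test, were not lower in replicate 2 by as much as the rest. They include DJKW.24665 and DJKW.11345, and their medians in control intact animals ranged from 51.3 to 8832 CPM. In control intact replicate 1 their median log2 ratio to the other libraries of the group was -0.065, against -0.54 in the 282 members at or below -1. In DjTcf4 RNAi fragment replicate 1 the values were -0.11 and 0.75, and in control fragment replicate 3 they were -0.011 and 0.59. Without replicate 2, the median log2 fold change in DjTcf4 RNAi fragments against DjTcf4 RNAi intact animals was -1.21 in the 13 and -1.18 in the 282. With all libraries it was -1.35 and -0.91. In control animals the median log2 ratio of fragments to intact animals was -1.16 in the 13 and -1.56 in the 282. Over the 15 libraries the member most like DJKW.24665 in log2 CPM was DJKW.11345 (Pearson 0.990); 14 members were above 0.9 and 277 below 0.8. Replicate 2 is among these libraries, and the counts were not taken without it. In deviations from group means, the median correlation of DJKW.24665 with the other members was -0.241 with replicate 2 and 0.216 without it.

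With DjTcf4 RNAi in intact animals no member passed the test with all libraries. The smallest adjusted p in edgeR was 0.351, with 12 members lower and 1 higher at an unadjusted p under 0.05; DESeq2 called 1 lower and limma-voom 3, against 0.176% and 0.228% of all genes. Of all genes tested, edgeR called 0.0117% lower and 0.0% higher, while 7.01% passed 0.05 without adjustment. The log2 fold change was below 0 in 294 members, with a median of -0.46, against 0.015 in the other abundant genes; without replicate 2 it was below 0 in 282 with a median of -0.18, against -0.041. The control intact libraries were used to choose the members for high values there, which by itself lowers this fold change. All 4 RNAi libraries lay below all 4 controls in 3 members (0.997%), against 1.32% of all genes tested.

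Without replicate 2, edgeR called 2 members lower with RNAi in intact animals, where 0.136% of all genes were called lower; both are named after their values were seen. Since the controls of this contrast helped to choose the members and the library was left out for standing apart, the values below are a description. DJKW.3238 stood at 115, 113, 110 and 118 CPM in control intact animals and at 60.6, 26.9, 79.0 and 58.0 CPM in DjTcf4 RNAi intact replicates 1 to 4, so the groups did not overlap. Its log2 fold change was -0.84 (SE 0.162; adjusted p = 0.0473, edgeR) without replicate 2 and -1.04 (SE 0.223; adjusted p = 0.351, edgeR) with it. The adjusted p ranged from 0.000763 to 0.882 over 23 alternatives, 3 of which called it. In fragments DJKW.3238 was at 22.4, 21.5, 30.5 and 29.6 CPM in control and at 30.1, 20.4 and 17.7 CPM with RNAi, where the groups overlapped. Unlike most members, it did not stand lower in control intact replicate 1 than in the rest of that group.

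DJKW.27398 stood at 336, 263, 303 and 265 CPM in control intact animals and at 176, 275, 203 and 171 CPM in DjTcf4 RNAi intact animals. Replicate 2 lay among the controls for this gene and the other 3 RNAi libraries lay below all of them. Its log2 fold change was -0.72 (SE 0.114; adjusted p = 0.0120, edgeR) without replicate 2 and -0.49 (SE 0.163; adjusted p = 0.644, edgeR) with it. The adjusted p ranged from 0.00375 to 0.90 over 23 alternatives, 2 of which called it. In fragments it was at 125, 146, 135 and 170 CPM in control and at 111, 116 and 112 CPM with RNAi. Its counts were fractional in all 15 libraries. DJKW.24665 and DJKW.11345 were not called in this comparison: their log2 fold changes were 0.16 (SE 0.128; adjusted p = 0.692, edgeR) and 0.26 (SE 0.0895; adjusted p = 0.672, edgeR).

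At 5 dpa the levels with and without DjTcf4 RNAi were set side by side as a description, since the rule bounded their ratio. The medians of the members were 28.3 CPM in control fragments and 29.0 CPM in DjTcf4 RNAi fragments, and the log2 ratio of group medians ranged from -0.39 to 0.93. In edgeR no member was called in either direction, against 0.041% of all genes lower and 0.00585% higher; 6 members were lower and 0 higher at an unadjusted p under 0.05, where 3.24% of all genes passed that bound. DESeq2 and limma-voom called 1 and 3 lower, against 0.211% and 0.275% of all genes. The median log2 fold change was 0.11 with all libraries and -0.16 without DjTcf4 RNAi fragment replicate 1, in which 283 members were highest of their group, so 1 library sets its sign. DJKW.24665 had a log2 fold change of -0.40 (SE 0.140; adjusted p = 0.99993, edgeR) and DJKW.11345 one of -0.28 (SE 0.0972; adjusted p = 0.99993, edgeR). These 2 genes were among the 3 that limma-voom called (adjusted p = 0.0472 and 0.0423, limma-voom), and 1 of 23 alternatives called each. For both, every RNAi fragment lay below every control fragment, as it did for 7 members in all (2.33%, against 2.6% of all genes tested).

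The difference between the changes at 5 dpa with and without RNAi contains the contrasts that chose the members, and its values are descriptive. In edgeR no member was called, against 0.00585% of all genes with a more negative and 0.0% with a more positive value; 3 members were more negative and 5 more positive at an unadjusted p under 0.05. Of all genes 3.47% passed that bound. DESeq2 and limma-voom each called 1 member more negative, DJKW.11345, against 0.0468% and 0.0234% of all genes. Its log2 difference was -0.54 (SE 0.132; adjusted p = 0.961, edgeR), and over 22 alternatives the adjusted p ranged from 0.0130 to 1.0. That of DJKW.24665 was -0.56 (SE 0.190; adjusted p = 0.961, edgeR). The median over the members was 0.57, and 0.31 without DjTcf4 RNAi intact replicate 2, so that these 2 genes went against most of the set.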

How the data were processed

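The authors deposited 1 table of expected counts, which may be fractional, with a row per gene and 1 column per library. Per the submitters' processing notes Bowtie2, HISAT2, RSEM and DESeq2 were used, with no role or version; neither the build nor the annotation behind the rows is named, and no reference sequence was used. CPM for the levels and for the choice of members is the deposited count divided by the column sum. For tests, counts were rounded to whole numbers, filtered with filterByExpr by group (minimum count 10, minimum total 15; 17094 genes, all 301 members among them) and scaled with TMM (factors 0.933 to 1.06). edgeR 4.0.16 in R 4.3.3 fitted 1 robust quasi-likelihood model to all 15 libraries with 1 coefficient per group; p-values were Benjamini-Hochberg adjusted over all genes tested, with 0.05 as the threshold. Standard errors were derived from the log2 fold change and its F value. Alternatives used DESeq2 1.42.0, limma 3.58.1 (voom with library quality weights) and the settings given below. Replicates of a group all differed by more than sampling noise (chi-square per degree of freedom 3.57 to 69.7).

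The members, lists and tests were chosen with earlier results of these data known. The rule for identifiers was the most abundant member and the member with the smallest p for the change at 5 dpa with DjTcf4 RNAi; DJKW.3238 and DJKW.27398 were added after their values were seen. Gene and marker lists could not be matched to identifiers.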

Additional observations from a re-analysis of the deposited data

Results flagged for a closer look

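Control 5 dpa replicate 2 had 19944 genes with a count, lower than the other 3 libraries of its group, at 21545 to 21719, by more than their spread. It also had the lowest total count of all 15 libraries, 8136366, and the part of depth in this value was not tested. The median member stood at 34.0% of its control intact median in this library, within the range of the group. A library of each other group also stood apart in genes with a count by more than the spread of the rest. Control intact replicate 1 had 22577, against 20761 to 21474. DjTcf4 RNAi intact replicate 3 had 20928, against 22092 to 22977, and DjTcf4 RNAi fragment replicate 4 had 21209, against 21988 and 22447. Of 18 group values looked at, chance alone would mark some, at a rate that was not tested.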

How the results depend on the processing

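The fall of the members with DjTcf4 RNAi (76 called lower) kept its direction, with 34 called without a filter, 124 by DESeq2, 291 by limma-voom and 20 when just the groups compared were fitted; with any 1 library left out the count lay between 24 and 294. With RNAi in intact animals (0), DESeq2 called 1, limma-voom 3, and leaving out a library 0 to 2; with RNAi at 5 dpa (0) DESeq2 called 1 and limma-voom 3, and for the difference of changes (0) each called 1, both with 0 in every fit that left out a library. For the contrast the rule used (295), leaving out a library gave 249 to 301. The count without overlap in DjTcf4 RNAi animals, 21, was 294 without DjTcf4 RNAi intact replicate 2, an alternative added once the values were known. The median log2 fold change ranged from -1.19 to -0.68 for the fall with RNAi and from -0.69 to -0.18 for RNAi in intact animals when a library was left out; that for RNAi at 5 dpa, 0.11, ranged from -0.16, without DjTcf4 RNAi replicate 1, to 0.28. The rule gave 558 members at 25 CPM and 136 at 100 CPM. Labels do not say that replicate numbers pair samples: deviations of same-numbered samples correlated from -0.417 to 0.277, above 0.1 in 4 of 14 pairs, and 5 of 28 best matches had the same number. With the replicate number as a block, 89 members were called lower with RNAi. Shares of all genes were not taken for the fits without a filter, with a block or of the compared groups alone. Nor were they for most fits that left out a library, so those counts cannot be set against a share. Some of these settings differ in the libraries or genes that were fitted, and the cause of the differences was not tested. Depth may limit the lowest levels, such as 2.21 CPM for the 61st member in control fragment replicate 2, but this was not tested.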
